A study of Ovis aries with 16 samples.

Results

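The first 2 Mb of sheep chromosomes 4 to 26, the acrocentric chromosomes, held 8581 of the 512238 regions of methylated DNA that were shared by fetuses in fetal longissimus dorsi (LD) muscle. A region was made by merging the peaks of all 16 fetuses that overlapped by at least 1 bp, and it was kept when at least 2 fetuses had a peak in it. It belonged to the first 2 Mb when its start, as deposited, lay at or below position 2000000 of the Oar_v3.1 assembly. Before the minimum of 2 fetuses was applied there were 11474 merged regions in the first 2 Mb, and 2893 of them, 25.2%, had a peak in a single fetus and were left out. The 8581 regions were 2.47% of the 346916 regions on chromosomes 4 to 26, and these first 2 Mb, 46 Mb in all, were 2.70% of the length of those chromosomes.

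The fetuses were carried by Polypay ewes that ate a hay diet (8 fetuses) or a corn diet (8 fetuses) from mid-gestation until necropsy late in gestation. The corn diet also contained some haylage, and both diets supplied equivalent metabolizable energy. They were not matched in other nutrients: the study lists higher daily crude protein, methionine, serine and choline for hay, and higher folate for corn. Genomic DNA of each fetus was enriched with a methyl-CpG binding domain (MBD) protein and sequenced, and peaks were called in each fetus separately. By the study's description of its DNA pools, the 8 hay fetuses were 4 pairs of twins from 4 ewes, and the 8 corn fetuses came from 5 ewes and included 3 pairs of twins. Both sexes were present, with 4 females and 4 males in hay and 3 females and 5 males in corn. Because dam, sex and sequencing lane are not given for the numbered samples, the tests treat the fetuses as independent, and their p-values may be too small. Between 261331 and 519923 peaks were listed per fetus over the whole genome, and between 5480 and 8741 per fetus in the first 2 Mb studied here. The files hold a position and a value for each peak and no read counts. No header names the value, which was read as the p-value of the peak caller because it runs from 0 to 0.1352, and each score below rests on that reading. Hence the depth behind a peak is unknown, and the absence of a peak does not show absence of methylation.

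In an acrocentric chromosome the centromere lies close to an end, so that the assembled sequence starts near it, whereas in a metacentric chromosome it lies near the middle. Sheep chromosomes 1 to 3 are metacentric and the other autosomes are acrocentric. DNA around mammalian centromeres is rich in repeated sequences such as satellites, which in somatic cells usually carry much CpG methylation, and the MBD protein binds double-stranded DNA with methylated CpG sites. No entry in the files marks a centromere, so the label "centromere-proximal" rests on chromosome shape alone and could not be checked against these data.

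In fetal LD muscle the first 2 Mb of the acrocentric chromosomes were not uniformly dense or sparse in methylated regions. Per fetus, 78.5 to 134.5 regions per Mb had a peak there, with a mean of 108.6 ± 14.7 (SD, n = 16), against 111.2 ± 19.98 per Mb in the rest of the same chromosomes, where the range was 71.4 to 145.7. The ranges of both parts overlapped over most of their length. The log2 ratio of the first 2 Mb to the rest was −0.025 ± 0.078 (SD, n = 16), a 0.983-fold density that was lower in 12 of 16 fetuses, and it did not pass the test (adjusted p = 0.222, two-sided exact permutation test that flips the sign of each fetus's value, adjusted over 7 comparisons). The result depended on how chromosomes were weighed. Taking the median over the 23 chromosomes in each fetus gave a log2 ratio of −0.0762 (adjusted p = 0.000191, exact permutation test), and without chromosomes 23, 24 and 26, a choice made after seeing the data, the density was 0.880-fold that of the rest and lower in 16 of 16 fetuses (adjusted p = 5.09e-05, exact permutation test). With only the first 1 Mb of each chromosome the log2 ratio was −0.0730 (adjusted p = 0.00345, exact permutation test).

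The difference from the other chromosome ends was larger than the spread between fetuses. The last 2 Mb of the same chromosomes had 220.0 ± 12.2 regions with a peak per Mb (SD, n = 16), with a range of 194.6 to 239.2 that did not overlap that of the first 2 Mb. The first 2 Mb had 0.490-fold as many, and fewer in 16 of 16 fetuses (adjusted p = 3.56e-05, exact permutation test). The first 2 Mb of the metacentric chromosomes 1 to 3 had 198.5 ± 6.47 regions with a peak per Mb (SD, n = 16), ranging from 186.8 to 207.2. Against these the first 2 Mb of the acrocentric chromosomes had 0.542-fold as many regions, again fewer in 16 of 16 fetuses (adjusted p = 3.56e-05, exact permutation test). In both comparisons the unadjusted p, 3.05e-05, is the smallest that 16 fetuses can give. It measures agreement among fetuses and not the spread over chromosomes. Single acrocentric chromosomes had means from 26.4 regions with a peak per Mb on chromosome 20 to 197.7 on chromosome 23. The latter was close to the 198.5 of chromosomes 1 to 3. Along the acrocentric chromosomes the density in steps of 0.25 Mb was 102.3 ± 14.1 per Mb in the first step, lowest in the step from 0.25 to 0.5 Mb at 86.7 ± 14.5, and highest within the first 2 Mb in its last step at 132.2 ± 18.4 (SD, n = 16), so there was no steady rise or fall away from the first base.

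**Figure D1:**
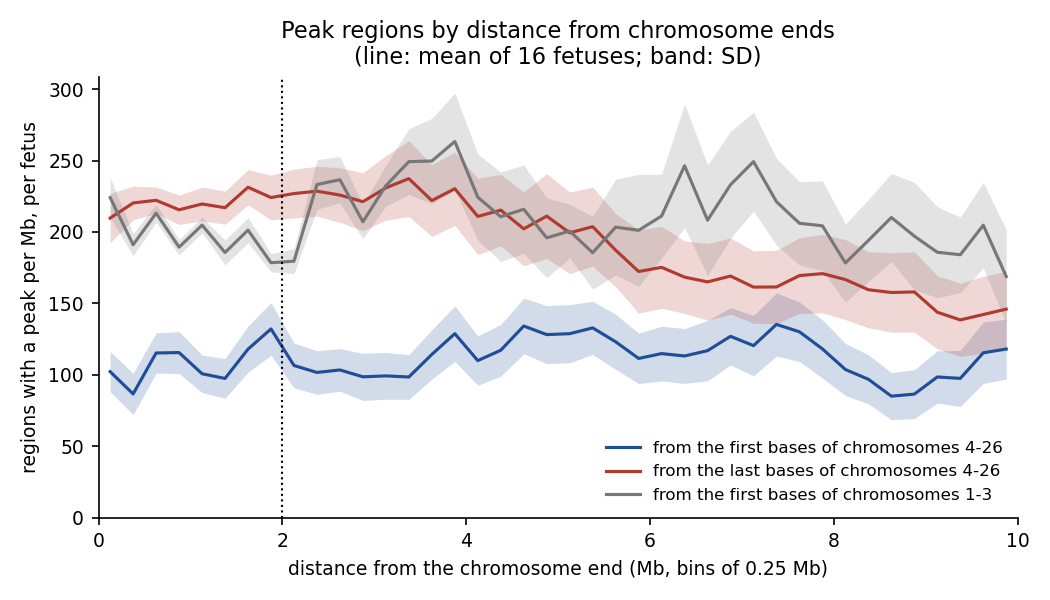
Regions with a peak per Mb and fetus (vertical axis) in bins of 0.25 Mb by distance in Mb from a chromosome end (horizontal axis), for the first and last bases of chromosomes 4 to 26 and the first bases of chromosomes 1 to 3. Lines are means of 16 fetuses, bands are SDs and the dotted line is at 2 Mb. Left of it the line for the start of the acrocentric chromosomes lies between 86.7 and 132.2, below both other lines.

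The small difference in density from the rest of the chromosomes was made of large and opposite differences between chromosomes. Of the 23 chromosomes, 12 had fewer regions per Mb in their first 2 Mb than in the rest and 11 had more. On 11 chromosomes the density was lower in all 16 fetuses, and on 9 it was higher in all 16. Chromosome 16 had the most regions in its first 2 Mb, 615, or 307.5 per Mb against 186.9 in its rest, a ratio of 1.65. Chromosome 14 followed with 611, chromosome 12 with 602 and chromosome 23 with 586. Chromosome 11 had the fewest, 95, or 47.5 per Mb against 231.3 in its rest, a ratio of 0.205.

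Chromosomes 20, 22, 4 and 10 were the next lowest by this ratio, at 0.261, 0.367, 0.427 and 0.471. In single fetuses the first 2 Mb of chromosome 11 held 20.5 to 32.0 regions with a peak per Mb and those of chromosome 20 held 15 to 35.5, whereas those of chromosome 16 held 142.5 to 238.5 and those of chromosome 24 held 168.0 to 227.0. The fetuses of the low chromosomes and of the high chromosomes did not overlap. Among the 820 other full windows of 2 Mb on chromosomes 4 to 26 the number of regions ranged from 76 to 772, with a median of 393, a 10th percentile of 224 and a 90th percentile of 602.1. Of the 23 first windows, 6 lay under that 10th percentile and 2 over that 90th percentile, and 1 other window had fewer regions than the start of chromosome 11. Within the first 2 Mb of the 23 chromosomes, the only part searched for this, the longest stretch with no peak in any fetus was on chromosome 11, 115553 bp from 430250 to 545803. Lengths include any bases of unknown sequence, since a genome of this assembly was not used here.

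**Figure D2:**
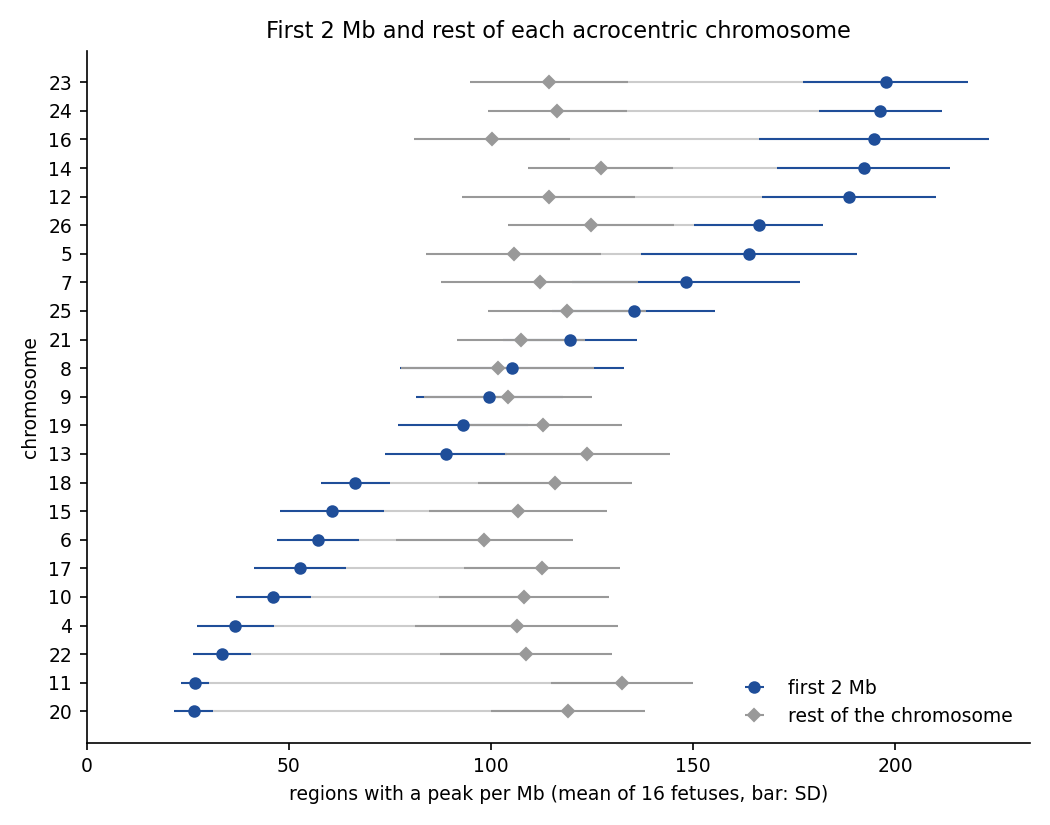
Regions with a peak per Mb (horizontal axis, mean of 16 fetuses with the SD as a bar) in the first 2 Mb and in the rest of each acrocentric chromosome (vertical axis, ordered by the first 2 Mb). The rest of each chromosome lies in a narrow band, whereas the first 2 Mb run from 26.4 on chromosome 20 to 197.7 on chromosome 23.

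Peaks in the first 2 Mb were wider than in the rest of the chromosomes. The median peak width per fetus was 258 to 606 bp with a mean of 396 ± 115 bp (SD, n = 16), against 250 to 546 bp with a mean of 333 ± 83.7 bp in the rest. The groups of values overlapped because fetuses differed more from each other than the parts of their genomes did. Within a fetus the median was wider by 63.7 ± 41.5 bp, in 16 of 16 fetuses (adjusted p = 3.56e-05, exact permutation test). This was 16.3 bp, in 14 of 16 fetuses, without chromosomes 23, 24 and 26 (adjusted p = 0.000183, exact permutation test). By chromosome, peaks were wider on 13 and narrower on 10, with differences from −90.6 bp on chromosome 17 to 220.2 bp on chromosome 24.

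The score of a peak is −log10 of the deposited value, read as a p-value, so on that reading a higher score marks a stronger enrichment call. The median score per fetus was 1.37 to 1.84 in the first 2 Mb, with a mean of 1.58 ± 0.136 (SD, n = 16), and 1.36 to 1.72 in the rest, with a mean of 1.51 ± 0.108. It was higher by 0.0668 ± 0.0324 (SD) in 16 of 16 fetuses (adjusted p = 3.56e-05, exact permutation test). Without chromosomes 23, 24 and 26 the difference was 0.0216, in 15 of 16 fetuses (adjusted p = 0.000114, exact permutation test). The mean score, which a few very strong peaks can move, was 2.29 ± 0.315 against 1.83 ± 0.219 (SD, n = 16). Chromosomes again went both ways, with a higher median score on 15 and a lower on 8. For width and score too, the p-values measure agreement among fetuses and not the spread over chromosomes.

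Pooled over chromosomes, regions of the first 2 Mb were shared by more fetuses than those of the rest of the same chromosomes. A peak was present in all 16 fetuses in 2003 regions, 23.3% of the 8581, against 17.4% of the 338335 regions in the rest, and in 2 fetuses in 14.6% against 16.0%. Of the regions in which a fetus had a peak, 40.9% ± 5.95 (SD, n = 16) were shared by all 16 in the first 2 Mb and 33.1% ± 6.64 in the rest. The difference was 7.77 percentage points, from 5.64 to 9.75, and in 16 of 16 fetuses it was above 0 (adjusted p = 3.56e-05, exact permutation test). A region with a peak in all 16 is counted for every fetus, so each fetus has the same 2003 regions. The fetuses are thus not separate evidence, and the p-value adds nothing to the pooled shares of 23.3% and 17.4%. The difference was 3.16 points without chromosomes 23, 24 and 26. Chromosomes went both ways, with more sharing on 14 and less on 9, of which 12 and 7 did so in every fetus. Their mean differences ran from −15.5 points on chromosome 17 to 24.4 points on chromosome 24. The share in all 16 fetuses ran from 7.60% on chromosome 4 to 44.1% on chromosome 24. Over the 23 chromosomes, Spearman's rho between density and this share was 0.603 and Pearson's r was 0.568, given as a description because both come from the same peaks.

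The other chromosome ends exceeded the first 2 Mb of the acrocentric chromosomes in width, score and sharing by more than these did the rest. In the last 2 Mb of the same chromosomes the median peak width was 740 ± 187 bp, the median score 2.13 ± 0.412 and the share of occupied regions with a peak in all 16 fetuses 69.9% ± 3.96 (SD, n = 16). In the first 2 Mb of chromosomes 1 to 3 the same values were 987 ± 199 bp, 2.64 ± 0.635 and 81.6% ± 2.70 (SD, n = 16). Each was higher than in the first 2 Mb of the acrocentric chromosomes in 16 of 16 fetuses. Peaks covered 46.6% ± 4.65 and 60.1% ± 4.52 of the bases at these ends (SD, n = 16), also more in 16 of 16 fetuses. These comparisons were added after seeing the data and are given without a test.

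Peaks covered 10.6% ± 1.51 of the bases in the first 2 Mb (SD, n = 16; 8.20 to 12.8%), and 8.96% ± 1.46 in the rest (6.32 to 11.5%). That was 1.19-fold more, and more in 16 of 16 fetuses (adjusted p = 3.56e-05, exact permutation test). The direction turned when chromosomes counted equally, with a log2 ratio of −0.411 for the median over the 23 chromosomes (adjusted p = 5.09e-05, exact permutation test). On 10 chromosomes peaks covered more bases at the start in all 16 fetuses, and on the other 13 fewer in all 16. Chromosomes 23, 24 and 26 were also left out, a choice made after seeing the data. The first 2 Mb then had 0.899-fold the share of bases under peaks of the rest, less in 16 of 16 fetuses (adjusted p = 5.09e-05, exact permutation test). Since regions covered the most bases on these 3 chromosomes, leaving them out lowers the pooled share in any case. Without the first 100 kb of each chromosome the log2 ratio was 0.137, against 0.248 with them (adjusted p = 3.56e-05 for both, exact permutation test). Chromosomes 23, 24 and 26 held 1607 of the 8581 regions, 18.7%, and 103 of the 170 regions of 5 kb or more, of which chromosome 24 had 54, chromosome 23 had 29 and chromosome 26 had 20. Regions of the first 2 Mb, merged over fetuses, covered 53.3% of those bases on chromosome 24, 48.9% on chromosome 23 and 37.3% on chromosome 26. Chromosome 16 was next at 35.7%, and chromosome 4 had 5.004%.

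The strongest peaks of the first 2 Mb lay near the first base. A p-value deposited as 0 was given a score of 100, above that of the smallest p-value that was not 0, 2.06e-85. Such peaks numbered 332 of the 1315 in the genome, and 579 were in the rest of chromosomes 4 to 26. Each fetus had 16 to 27 of them in the first 2 Mb, with a mean of 20.8 ± 3.19 (SD, n = 16), or 28.6 ± 6.71 per 10000 of its peaks there, against 1.44 ± 0.397 per 10000 in the rest. The ranges, 18.7 to 42.9 and 0.914 to 2.19 per 10000, did not overlap. This measure and the distances below were chosen after the values were seen, and they are given without a test.

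At least 1 fetus had a p-value of 0 in 28 regions of the first 2 Mb (0.326%) and in 63 regions of the rest (0.0186%), and all 16 fetuses had one in 15 and 21 regions. The first 100 kb of each chromosome held 472 of the 8581 regions but 20 of those 28 and 12 of those 15, the last on 10 chromosomes. In these 100 kb, 7.20% of regions had a mean score of at least 10 after scaling between fetuses, and 7.42% were 5 kb or wider. From 100 kb to 2 Mb the shares were 0.382% and 1.66%, and in the rest of the chromosomes they were 0.0984% and 1.14%. The last 100 kb of the same chromosomes held 684 regions, of which 6.43% were 5 kb or wider and 1.02% had a mean score of at least 10. Of these 684, 3 had a p-value of 0 in any fetus and 0 had it in all 16. By other measures the last 100 kb were higher than the first 100 kb. The median of the mean scores was 1.78 against 1.15, the median region width 1217 against 846 bp, and the share with a peak in all 16 fetuses 43.9% against 33.5%. On 22 of the 23 chromosomes a region started within the first 10 kb. The wider, higher-scoring and more shared peaks were not limited to this edge. With the first 100 kb left out the differences from the rest were 53.8 bp in width and 0.0540 in score. Each had an adjusted p of 3.56e-05 (exact permutation test, n = 16). The difference in sharing was 6.97 points, for which the fetuses are not separate evidence.

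**Figure D3:**
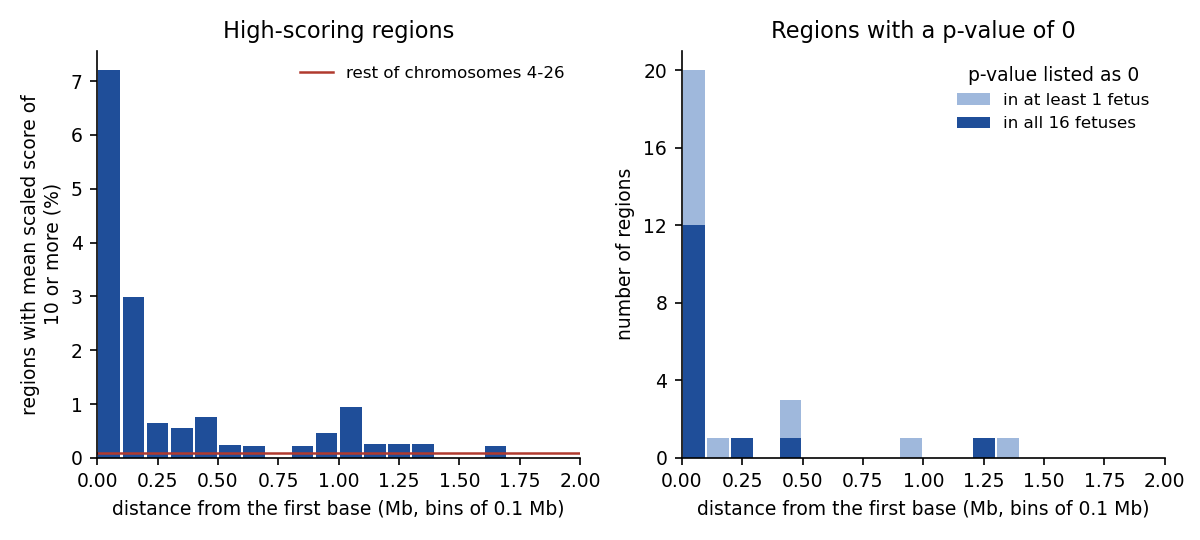
Regions of the first 2 Mb by distance in Mb from the first base, in bins of 0.1 Mb summed over 23 chromosomes. Left, percent of regions with a mean scaled score of at least 10 (bars), with the rest of chromosomes 4 to 26 as a line at 0.0984%, and right, the number of regions with a deposited p-value of 0 in at least 1 fetus or in all 16. The first bin stands out with 7.20% in the left panel and with 20 and 12 regions in the right panel.

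The 15 regions with a p-value of 0 in every fetus lay on chromosomes 7, 9, 11, 14, 16, 18, 20, 22, 23 and 25. Chromosome 9 had 3 of them, at 1642 to 32698, 265519 to 276377 and 493186 to 497566. Chromosome 23 also had 3, at 82572 to 87161, 87454 to 93186 and 1230212 to 1233803. Chromosome 11, the sparsest by number of regions, had 2, at 0 to 3321 and 4491 to 29339. The others were single regions, among them 7:2887-22930, which held 94 peaks of the 16 fetuses, 20:3123-12526 and 22:0-11081. Regions with a start of 0, as on chromosomes 11, 14, 22 and 25, reach the edge of the assembled sequence, so their true width is not known. Since every fetus had the same capped p-value in these 15 regions, they carry no measured difference between fetuses or diets.

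The widest region of the first 2 Mb, 20:12840-46114 (33275 bp), was built from 225 peaks. Its strongest peak had a p-value of 0 in 12 fetuses, whereas hay fetuses 3, 8 and 12 had highest scores of 27.6, 26.9 and 30.2 and corn fetus 4 had 23.3. Nothing lay between those 4 fetuses and the cap. The next widest were 9:1642-32698 (31057 bp), 23:771590-801268 (29679 bp), 11:4491-29339 (24849 bp) and 7:2887-22930 (20044 bp). Of these the region of chromosome 23 was wide without being strong, since its 169 peaks reached highest scores of 2.83 to 6.52 among the 16 fetuses. These are merged widths, and single peaks inside the regions were mostly narrower, with a median of 1273 bp for chromosome 20 and 1776 bp for this region of chromosome 23.

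The comparison of hay with corn asked whether the maternal diet went with a difference at these chromosome starts. None of 8 measures passed after adjustment. Hay fetuses had 78.5 to 126.9 regions with a peak per Mb (median 111.3) and corn fetuses 93.2 to 134.5 (median 109.5), and the groups overlapped over most of their range. The means were 107.6 ± 17.6 and 109.5 ± 12.4 (SD, n = 8 each), a difference of −1.87 (p = 0.812, adjusted p = 0.928, two-sided exact permutation test over 12870 assignments, whose smallest possible p is 0.000155). The percent of the 8581 regions with a peak carries the same information and was 57.7% ± 9.42 in hay and 58.7% ± 6.66 in corn. Without corn fetus 7, which had the most regions, the difference in density was 1.70 in the other direction (exact permutation p = 0.815). The log2 ratio of the first 2 Mb to the rest was −0.0244 ± 0.0916 in hay fetuses and −0.0247 ± 0.0675 in corn fetuses (SD, n = 8; exact permutation p = 0.994).

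Corn fetuses had the higher mean peak score and width in the first 2 Mb, by amounts that did not pass. The median score was 1.37 to 1.67 in hay and 1.41 to 1.84 in corn, with means of 1.51 ± 0.104 and 1.65 ± 0.137 (SD, n = 8 each; exact permutation p = 0.0465, adjusted p = 0.249). In the rest of the chromosomes the same values were 1.46 ± 0.0862 and 1.56 ± 0.106, so corn fetuses were also higher there. The difference between the first 2 Mb and the rest was 0.0519 ± 0.0276 in hay and 0.0817 ± 0.0313 in corn (SD, n = 8 each; exact permutation p = 0.0623, adjusted p = 0.249). The median peak width was 266 to 478 bp in hay and 258 to 606 bp in corn, with means of 351 ± 82.2 and 442 ± 129 bp (SD, n = 8 each; exact permutation p = 0.118, adjusted p = 0.315), against 297 ± 43.2 and 369 ± 101.1 bp in the rest. Peaks covered 10.2% ± 1.70 and 10.999% ± 1.28 of the bases (SD, n = 8 each; exact permutation p = 0.310, adjusted p = 0.601). By chromosome, the hay mean density was above the corn mean on 5 and below it on 18, with differences from −7.81 to 3.63 regions per Mb. The chromosomes share the same fetuses, so these counts are not independent. In the rest of the chromosomes the density was 110.5 ± 23.5 in hay and 111.9 ± 17.4 in corn (SD, n = 8 each).

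**Figure D4:**
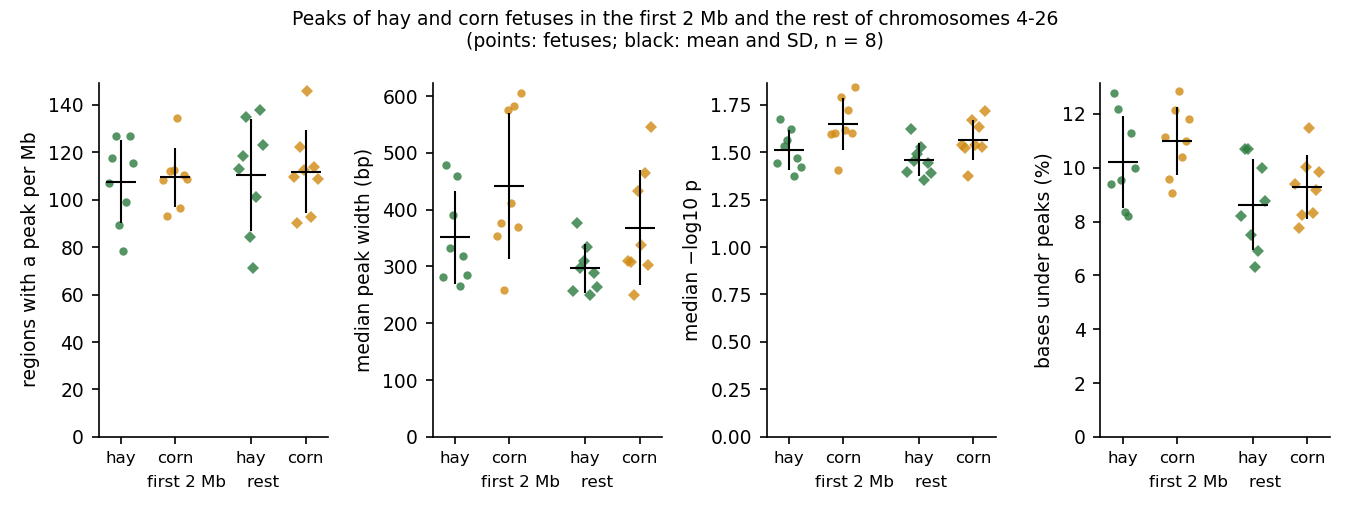
Regions with a peak per Mb, median peak width in bp, median −log10 p and percent of bases under peaks (vertical axes) for hay and corn fetuses in the first 2 Mb (circles) and in the rest of chromosomes 4 to 26 (diamonds). Each point is a fetus and black marks are means and SDs (n = 8). Hay and corn overlap in every panel, and the corn mean is the higher in score and width in both parts of the chromosomes.

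Region by region, none of the 8581 regions differed between diets at an adjusted p under 0.1 with limma on log2(scaled score + 1), fitted over all 512238 regions, of which 0.000586% were called. The smallest adjusted limma p in the first 2 Mb was 0.919. The scaled score is the highest score of a fetus in the region divided by a factor that levels the fetuses, and it is 0 without a peak. At an unadjusted p under 0.05, 135 regions (1.57%) were higher in hay and 150 (1.75%) in corn, near the 1.43% and 1.73% of all regions. At p under 0.001 there were 4, where all regions gave 0.0408%. The median difference was 0.0084 in the first 2 Mb and 0.0157 over all regions on this log2 scale. By presence of a peak, Fisher's exact test called 0 regions at an adjusted p under 0.1, as it did over all regions (0.0%). At an unadjusted p under 0.05, 16 regions (0.186%) had peaks in more hay fetuses and 38 (0.443%) in more corn fetuses, against 0.149% and 0.441% of all regions.

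No region of the first 2 Mb had every hay score above every corn score or the reverse, which held for 0.00273% and 0.00332% of all regions. Peaks were in more hay than corn fetuses in 2284 regions (26.6%), in more corn than hay fetuses in 2647 (30.8%), and in equal numbers in 3650 (42.5%). Over all 512238 regions these shares were 28.9%, 32.6% and 38.4%, so the lean to corn was also that of the whole genome. Only hay fetuses had a peak in 490 regions (5.71%) and only corn fetuses in 288 (3.36%), near the 6.1% and 3.4% of all regions. No region of the first 2 Mb had a peak in all 8 fetuses of a diet and in 0 of the other.

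The 5 regions with the smallest limma p are given with their scores before scaling. Their SEs are those of limma, which shrinks the variance of each region toward a trend over all regions. They therefore differ from an SE taken from the fetuses of that region alone. In 4:55700-56455 hay fetuses had scores of 8.51, 9.55, 7.96, 6.06, 6.18, 4.72, 9.11 and 9.28, in the order of their numbers, and corn fetuses 7.63, 4.55, 6.30, 0, 7.89, 5.59, 6.92 and 8.76. The diets overlapped, and corn fetus 6 was the only fetus without a peak. The log2 values of the scaled scores were 3.18 ± 0.32 in hay and 2.51 ± 1.05 in corn (SD, n = 8 each). Their difference was 0.67 ± 0.17 (limma SE; limma p = 0.000207, adjusted p = 0.919), and the exact permutation test of the same values gave p = 0.0329. When regions with a peak in a single fetus were added to the fit, the adjusted limma p of this region was 0.0435. That wider fit called 43 of 706111 regions of the genome, 0.00609%.

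In 7:695281-696047 all 8 corn fetuses had a peak, with scores of 1.46 to 2.66, but hay fetuses 5, 8 and 15 alone had one among the hay fetuses, with scores of 1.62, 1.14 and 1.15. The weak peaks of these 3 hay fetuses overlapped the lowest corn values after scaling. The log2 difference was −1.004 ± 0.29 (SE; limma adjusted p = 0.919), and this region had the smallest exact permutation p of the 5, 0.000622. The region 23:125-953, at the very start of its chromosome, had the same pattern, with a peak in 8 corn fetuses (scores 1.21 to 3.104) and in hay fetuses 3, 5 and 11 (1.27, 1.05 and 2.24), and a log2 difference of −0.98 ± 0.29 (SE; limma adjusted p = 0.919; exact permutation p = 0.00808). The region 13:542568-543575 had a peak in 8 corn and 5 hay fetuses, with scores up to 3.76 in corn and 2.42 in hay, and a log2 difference of −0.75 ± 0.23 (SE; limma adjusted p = 0.919; exact permutation p = 0.0168).

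The wider fit called 1 more region of the first 2 Mb, 15:1300178-1301201, named here after its values were seen, which had an adjusted limma p of 0.919 in the fit over 512238 regions. All 16 fetuses had a peak in it. Hay fetuses had scores of 27.6 to 49.4, corn fetuses 2, 4, 9 and 13 had 24.1, 50.9, 32.2 and 64.5, and the other 4 corn fetuses had a p-value of 0 and thus the score of 100. The log2 difference was −0.58 in the wider fit (limma adjusted p = 0.000137), and its size depends on the score given to a p-value of 0.

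In 19:1122498-1123431 the fetuses fell into low and high scores in both diets. Hay fetuses 3, 8, 12, 15 and 16 had 7.18, 6.36, 6.78, 18.2 and 7.31 and corn fetuses 4 and 7 had 10.2 and 7.17, whereas the other 3 hay fetuses had 1.04 to 1.09 and the other corn fetuses had 0 to 1.95. No fetus lay between 1.95 and 6.36. The log2 values of the scaled scores were 2.53 ± 1.34 in hay and 1.57 ± 1.22 in corn (SD, n = 8 each). The log2 difference between diets was 0.96 ± 0.27 (limma SE; limma adjusted p = 0.919), and the exact permutation test gave p = 0.163.

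The study's list of diet regions was chosen on these same fetuses, so its members are described without a test. It had 2 entries in the first 2 Mb of the acrocentric chromosomes. A region at 13:1832872-1833103 (232 bp), assigned to PLCB4, a phospholipase C that acts in phosphoinositide signalling, had a peak in hay fetuses 8, 15 and 16, with scores of 1.38, 1.19 and 1.08, and in 0 corn fetuses. By bisulfite sequencing of pooled DNA, however, the study found this PLCB4 region highly methylated in both diets, without a significant difference between them. A region at 9:571888-572581 (694 bp) had a peak in corn fetuses 1, 7 and 9, with scores of 1.111, 1.34 and 1.08, and in 0 hay fetuses. Most fetuses had no peak in either region, and the highest of these scores, 1.38, was close to the lowest of the fetuses' median scores in the first 2 Mb, 1.37.

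**Figure D5:**
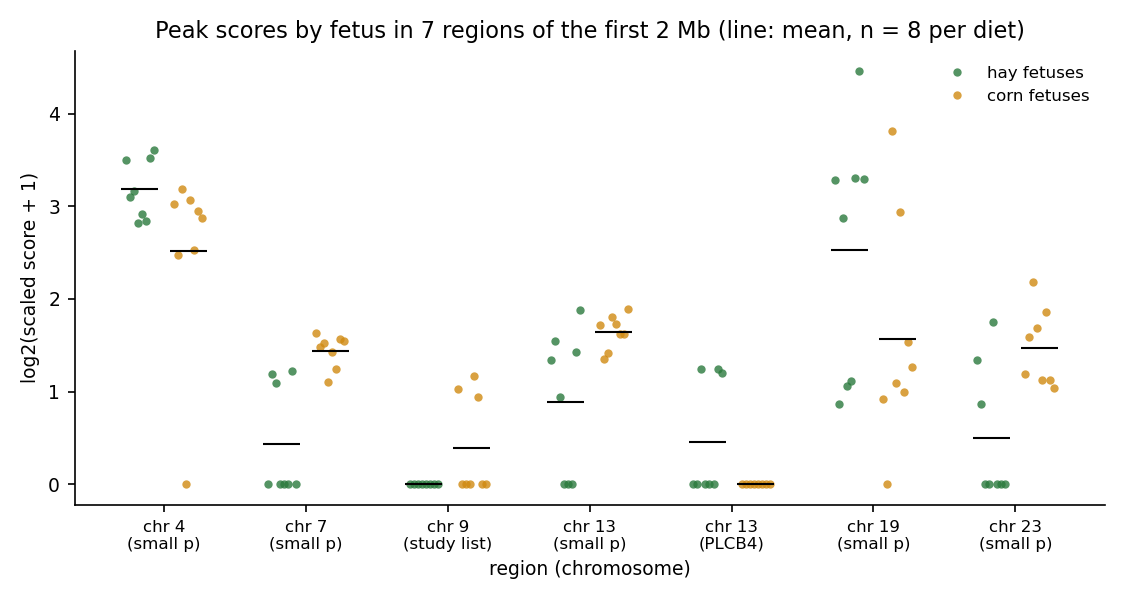
log2(scaled score + 1) by fetus (vertical axis) in 7 regions of the first 2 Mb (horizontal axis, by chromosome): the 5 with the smallest limma p and the 2 in the study's list of diet regions. Each point is a fetus, 0 means no peak, and lines are means (n = 8 per diet). Hay and corn points overlap in every region, and on chromosome 19 both diets split into low and high scores.

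Pooled over the acrocentric chromosomes, the mean density was lower just outside the limit of 2 Mb than just inside it. It was 132.2 ± 18.4 regions with a peak per Mb from 1.75 to 2 Mb and 106.6 ± 15.7 from 2 to 2.25 Mb (SD, n = 16). This difference was not tested. On chromosomes 16 and 11 the regions nearest the limit had peaks in similar numbers of fetuses on both sides. On chromosome 16 the last region inside was 16:1998155-1998881, with a peak in 7 fetuses, and the first outside was 16:2000081-2000698, with a peak in 6. On chromosome 11 the last inside was 11:1823537-1824274, in 5 fetuses, and the first outside was 11:2032416-2032939, in 4. Gene annotation of this assembly was not used here, so apart from PLCB4 no gene is named for these regions.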

How the data were processed

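Genomic DNA of 16 fetal LD muscle samples was enriched with an MBD protein and sequenced with paired-end reads. Per the labels, the processing tools included Trimmomatic 0.33, BWA 0.7.15 and Picard 1.107, and the authors called peaks in each sample with ChIPseeqer on Oar_v3.1. Each deposited list gives chromosome, start, end and a value for each peak, with no header. The deposited value was read as a p-value, since it runs from 0 (1315 peaks of 6410742) to 0.135 and the peak caller uses a Poisson model. Positions are as deposited, with starts counted from 0.

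Peaks of all fetuses were merged where they shared at least 1 bp, and a merged region was used when 2 or more fetuses contributed to it. The score was −log10 of the p-value, with 0 set to 1e-100. Chromosome length was taken to the end of the last peak. Each region's highest score per fetus was divided by a median-ratio factor over regions with a peak in all 16 fetuses. Measures of the first 2 Mb were compared with exact permutation tests, two-sided, over fetuses (Python 3.11.15, numpy 2.4.6), with Benjamini-Hochberg adjustment over 7 comparisons of chromosome parts and 8 of diets. Regions were compared between diets with limma 3.58.1 in R 4.3.3 on log2(scaled score + 1), with a trend and a threshold of 0.1 on the adjusted p over all regions, and with Fisher's exact test on presence. Merging and tests were tested on simulated data.

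The regions, lists and measures were chosen with earlier results of these data known. The regions named were those with an adjusted p under 0.1, the 5 with the smallest limma p, the 5 with the highest mean score, the 5 widest, those in the study's list of diet regions, and the last inside and first outside the limit on the chromosomes with most and fewest regions. Since 15 regions tied for the highest score, all 15 were described. Samples were grouped by the diet in their titles. The alternatives were other lengths of the first part, minimum numbers of fetuses, score limits, scalings and pseudocounts, and the removal of single samples or chromosomes.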

Additional observations from a re-analysis of the deposited data

Results flagged for a closer look

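In 38 groups of 8 fetuses checked for a value far from the others, 6 had one. Chance gives about 1 in 20 groups for independent values with a normal distribution, a rate that does not hold here, since some groups hold mostly scores of 0 or capped scores, and the density and the share of regions with a peak are the same measure. Corn fetus 7 had 134.5 regions with a peak per Mb in the first 2 Mb, while the next corn fetus had 112.4. The same fetus, in the same measure as a share, had a peak in 72.1% of the 8581 regions, while the next had 60.3%. Corn fetus 6 had a scaled score of 0 in 4:55700-56455, where the lowest of the other corn fetuses had 4.57. Hay fetus 5 had a scaled score of 0.895 in 11:1823537-1824274, where the other hay fetuses had 0. Hay fetus 15 had a scaled score of 20.9 in 19:1122498-1123431, where the next hay fetus had 8.87. Corn fetus 4 had a scaled score of 29.9 in 20:12840-46114, where the lowest of the other corn fetuses had 72.3, the other corn fetuses having a p-value of 0 there.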

How the results depend on the processing

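Width and score in the first 2 Mb stayed above the rest of the chromosomes, past the threshold under each alternative run. Sharing did too, but the fetuses are not separate evidence for it. These p-values measure agreement among fetuses and not the spread over chromosomes, which went both ways in each of these measures. Density stayed below that of the other chromosome ends, past the threshold under each alternative run for it. Those did not include the median over chromosomes or the removal of chromosomes 23, 24 and 26. The log2 ratio of density to the rest passed the threshold with a first part of 1 Mb (−0.0730), as the median over chromosomes (−0.0762) and without chromosomes 23, 24 and 26 (−0.184), and turned to 0.0119 with peaks above the 25th percentile of scores only. The log2 ratio of bases under peaks turned to −0.411 as the median over chromosomes and to −0.154 without chromosomes 23, 24 and 26. The alternatives that leave out chromosomes or corn fetus 7, and the permutation tests of single regions, were chosen after seeing the data.

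No diet measure passed under any alternative. The hay minus corn difference in the log2 ratio of densities, 0.0003, turned to −0.0114 with a first part of 5 Mb, −0.0014 with regions of at least 1 fetus and −0.0127 without corn fetus 7. Without that fetus the differences in density and in the percent of regions with a peak turned to 1.70 and 0.913. The difference in width relative to the rest turned to 13.2 bp with peaks above the 25th percentile only. With no scaling, regions with a limma p under 0.05 numbered 56 (0.653%) higher in hay and 498 (5.80%) in corn. Of all regions 0.722% and 4.95% were then called, so the corn share was higher in the first 2 Mb. By presence of a peak such regions numbered 74 (0.862%) in hay and 120 (1.40%) in corn, near the 0.856% and 1.44% of all regions. With regions of at least 1 fetus, 2 regions had an adjusted limma p under 0.1, as did 43 of all 706111 regions (0.00609%). With peaks above the 25th percentile only, Fisher's test at an unadjusted p under 0.05 gave 7 regions with more hay and 50 with more corn fetuses, where 0.118% and 0.68% of all 415006 regions were called. The shares of the first 2 Mb that these 7 and 50 regions make up were not computed. The cause of these changes was not tested.

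No paired analysis of the diets was possible because hay and corn fetuses came from different ewes. Twins within a diet could not be taken into account, since dams are not given for the numbered samples. The density per base of known sequence was not run, since a genome of this assembly was not used here. Read depth is unknown, so a missing peak cannot be told apart from a shallow library, and a p-value of 0 hides differences among the strongest peaks.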
